A study of Mus musculus with 12 samples.

Results

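Zdhhc15, Stag3, Spa17, Trpm7, Mogat2 and Zfp934 are 6 genes whose change of translation efficiency (TE, ribosome footprints relative to RNA) passed the threshold of the test in mouse embryonic fibroblasts (MEFs), although their calls were taken to rest on few footprints or on RNA counts that differed between replicates. They were picked by name from 26 TE calls among 20661 counted genes, so their TE, RNA and footprint changes in the comparison that picked them are given here as a description. RNAseq and ribosome profiling were run on 3 groups of MEFs at passage 4, with 2 replicates per assay, for 12 libraries in all. All groups were transduced with a lentiviral short hairpin RNA and selected with puromycin. WT-shSCR MEFs are wild type and carried a scramble hairpin, WT-shARF MEFs are wild type and carried a hairpin against ARF, and ArfKO-shSCR MEFs lack ARF and carried the scramble hairpin. The labels give the strain as C57BL/6J for the wild type and B6.129X1-Cdkn2atm1Cjs/KaiJ for the knockout, so the genotype and the strain background cannot be told apart in the knockout comparison, and the study's methods name another wild-type strain. In the knockout, a neomycin cassette replaces exon 1β of Cdkn2a.

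In ribosome profiling, the pieces of mRNA that a translating ribosome protects from nuclease are sequenced, so the footprints of a gene follow both the amount of its mRNA and how densely ribosomes occupy it. Dividing footprints by RNA takes the amount of mRNA out, and any error in either number moves the ratio. ARF, the alternative reading frame product of Cdkn2a, is a tumor suppressor that acts on p53 through MDM2 and restrains ribosome biogenesis in the nucleolus.

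The 6 genes have no common function. Zdhhc15 encodes a palmitoyltransferase of the DHHC family, which attaches palmitate to cysteines of membrane proteins. Trpm7 encodes a cation channel fused to a protein kinase that carries magnesium and calcium. Mogat2 encodes a monoacylglycerol acyltransferase known from fat absorption in the intestine. Stag3 encodes the cohesin subunit of meiotic chromosomes, and Spa17 a protein of the sperm fibrous sheath with a docking domain like that of protein kinase A regulatory subunits. Zfp934 is one of a large mouse family of zinc finger genes that arose by duplication.

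Sequence bears on one of the 6 genes, because fragments of 17 to 34 nt were sequenced and reads that fit several places were left out of the counts. In GRCm38, the assembly behind mm10, GENCODE places Zfp934 on chromosome 13 (minus strand, 62479827 to 62571199), with a coding sequence of 1419 nt in 4 exons. Of the 1395 windows of 25 nt in that coding sequence, 1139 (81.6%) are also present in transcripts of other genes, 145 genes in all, led by Zfp808 with 1076 windows. This share exceeds that of 95.6% of 11163 genes, among which the median is 0 and 16.4% of genes have over 10% of their windows shared. The windows below are the one found in the most other genes, 59 of them, and one from the longest stretch found in no other gene. Both are read on the minus strand of GRCm38, from the annotation's transcripts.

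Zfp934 coding positions 397 to 421, chr13:62518501-62518525: tatgaatgtaaacaatgtggtaaag
Zfp934 coding positions 461 to 485, chr13:62518437-62518461: atcatactggagagcaacccttcac

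A read of exactly the first window has a match in the transcripts of other genes, and one of exactly the second has none there. Fragments shorter or longer than 25 nt and matches elsewhere in the genome were not compared. With most of its windows shared, the counts of Zfp934 are uncertain in level. An exon of Zfp935, on the same strand, also overlaps the coding sequence of Zfp934 in GENCODE. Reads were counted on coding sequence, and whether the coding sequences of these genes overlap was not compared. For the other 5 genes, 0 windows of 25 nt were found in another gene. Trpm7 lies on chromosome 2 from 126791565 to 126876230 with 39 coding exons and 5589 nt of coding sequence, and Zdhhc15 on chromosome X from 104536969 to 104671064 with 1011 nt. Mogat2 (chromosome 7, 99219084 to 99238619, 1002 nt) and Spa17 (chromosome 9, 37603290 to 37613722, 447 nt) are, like these, on the minus strand. Trpm7, Zdhhc15, Mogat2 and Spa17 each overlap a gene on the opposite strand (Gm14212, Gm22430, Gm45012 and Siae), without an exon of it on their coding sequence. Stag3 (chromosome 5, plus strand, 138280240 to 138312393) has 3720 nt of coding sequence in 33 exons.

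Reads on genes summed to 1578627 to 3989908 in the 6 RNAseq libraries and to 2544319 to 5157572 in the 6 ribosome profiling libraries, and levels below are in normalized counts (CPM, counts scaled by TMM to a common library size). All 10 fibroblast markers had reads in every group. Of 10 germ cell markers, 7 or 8 had RNA reads in each group, and Prm1 was at 0 in every group. The germ cell markers summed to 67.2 to 117 CPM of RNA and to 0.731 to 7.49 CPM of footprints. Of 7 intestinal markers 5 or 6 had RNA reads in each group, with sums of 12.9 to 26.1 CPM and Fabp2 at 0 in all. The RNA of 9 macrophage markers summed to 420 to 440 CPM in the WT-shSCR, 138 to 197 CPM in the WT-shARF and 43.5 to 52.1 CPM in the ArfKO-shSCR libraries. Its part in the results below was not tested. RNA of Cdkn2a, the targeted gene, was at 43.8 and 41.0 CPM in WT-shSCR and at 27.1 and 31.5 CPM in ArfKO-shSCR libraries, but at 627 and 654 CPM in those labelled WT-shARF. Counts per gene do not separate ARF from INK4A, the other product of Cdkn2a. Every direction of the second comparison therefore rests on its label. Both comparisons share the WT-shSCR libraries.

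**Figure D1:**
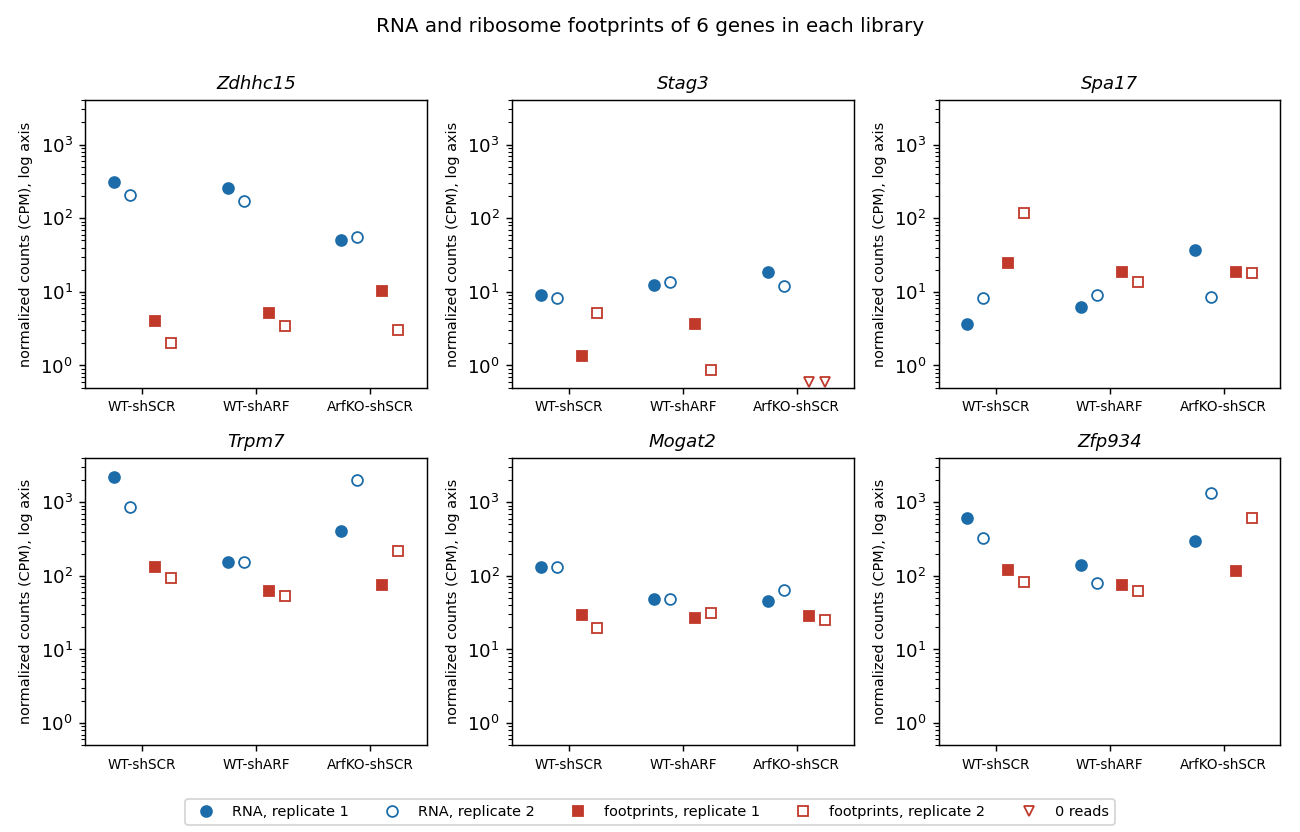
Normalized counts (CPM, log axis) of each gene in each of the 12 libraries, by condition, with RNA as circles, footprints as squares, replicate 1 filled and replicate 2 open. Triangles mark 0 reads, which were the footprints of Stag3 in both ArfKO-shSCR libraries. In the RNA of ArfKO-shSCR MEFs, Trpm7, Zfp934 and Spa17 differ most between replicates, and in that of WT-shSCR MEFs the Mogat2 replicates (134 and 133 CPM) lie closest together.

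In ArfKO-shSCR against WT-shSCR MEFs, TE was higher for 10 of 11314 genes (0.0884%) and lower for 12 (0.106%). Zdhhc15 is among the first and Stag3 and Spa17 are among the second, so that 3 of these 22 calls are described here. Fold changes are from edgeR, and the adjusted p (Benjamini-Hochberg) of a TE change is the value that picked the gene.

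Zdhhc15 RNA was abundant and its footprints were few. Its RNA was counted 840 and 326 times (309 and 206 CPM) in the WT-shSCR, 488 and 747 times (255 and 171 CPM) in the WT-shARF and 140 and 134 times (49.9 and 56.3 CPM) in the ArfKO-shSCR replicates. The ArfKO-shSCR libraries lie below all others without overlap. In bulk samples, fewer cells that express a gene and less RNA per cell cannot be told apart. Its footprints were counted 12 and 5 times (4.00 and 1.99 CPM) in WT-shSCR, 14 and 16 times (5.11 and 3.45 CPM) in WT-shARF and 50 and 15 times (10.1 and 3.03 CPM) in ArfKO-shSCR MEFs. The second ArfKO-shSCR library lies inside the range of the WT-shSCR libraries, and the first is 3.33-fold higher than it (95% exact binomial interval 1.84 to 6.39, counting error only). The log2 fold change was -2.29 for RNA (SE 0.20) and 1.07 for footprints (SE 0.67), which left a TE change of 3.31 (SE 0.56, adjusted p = 0.0118). Most of that value is thus the RNA. At least 134 RNA reads per library stand behind it, while 17 footprints in all stand for the WT-shSCR group. Without the first ArfKO-shSCR footprint library the footprint change was -0.02 and the TE change 2.28.

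The footprints of Stag3 were close to none in every group. They were counted 4 and 13 times (1.33 and 5.18 CPM) in WT-shSCR, 10 and 4 times (3.65 and 0.862 CPM) in WT-shARF and 0 and 0 times in ArfKO-shSCR MEFs. No read was found in 2 of 2 ArfKO-shSCR libraries, which are the deepest in the series. Against a floor of 3 counts over the group, footprints were 10.2-fold lower in ArfKO-shSCR than in WT-shSCR MEFs. With the first WT-shSCR library alone as the control, which has 4 counts, the value was 4.4-fold. Both values take the control counts as exact, so they are not lower bounds. Its RNA was counted 25 and 13 times (9.20 and 8.20 CPM) in WT-shSCR, 24 and 60 times (12.5 and 13.8 CPM) in WT-shARF and 53 and 29 times (18.9 and 12.2 CPM) in ArfKO-shSCR MEFs. RNA reads were thus present in all 6 libraries, and the 2 groups compared do not overlap. The RNA change was a log2 of 0.83 (SE 0.40). The fitted TE change of -7.19 (SE 1.45, adjusted p = 0.0393) depends on the prior count of the fit and is no measure of size, since one of its 4 groups is at 0. The footprints alone were too few to be tested.

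Spa17 is the reverse case, with more footprints than RNA. Its RNA was counted 10 and 13 times (3.68 and 8.20 CPM) in WT-shSCR, 12 and 39 times (6.27 and 8.94 CPM) in WT-shARF and 104 and 20 times (37.1 and 8.40 CPM) in ArfKO-shSCR MEFs. The second ArfKO-shSCR library differs little from the second WT-shSCR library, and the first stands 4.41-fold above it (2.71 to 7.51). Footprints were counted 73 and 300 times (24.3 and 120 CPM) in WT-shSCR, 51 and 64 times (18.6 and 13.8 CPM) in WT-shARF and 91 and 89 times (18.4 and 18 CPM) in ArfKO-shSCR MEFs. The 4 libraries of the other groups agree within 1.35-fold inside each group, while the WT-shSCR replicates differ 4.91-fold (3.79 to 6.43). The TE change of -4.10 (SE 0.86, adjusted p = 0.0460) therefore combines an RNA rise carried by 1 ArfKO-shSCR library and a footprint fall carried by 1 WT-shSCR library. With the first ArfKO-shSCR RNA library left out, the RNA change of 2.04 (SE 0.57) became 0.57, and without the second WT-shSCR footprint library the footprint change of -2 (SE 0.36) became -0.45. Spa17 was also the called gene nearest to the threshold, and the first gene outside it was Fut10, a fucosyltransferase-family gene, with a log2 TE change of 2.27 and an adjusted p of 0.0579 by edgeR.

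In WT-shARF against WT-shSCR MEFs, TE was higher for 4 of 11289 genes (0.0354%), of which Trpm7, Mogat2 and Zfp934 are 3. By edgeR it was lower for 0 genes (0%), with 321 genes lower at an unadjusted p under 0.05 and 4 lower by DESeq2. In all 3 genes the RNA was lower and the footprints moved less.

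Trpm7 had the most RNA of the 6 genes. Its RNA was counted 5920 and 1377 times (2178 and 868.5 CPM) in the WT-shSCR and 297 and 670 times (155 and 154 CPM) in the WT-shARF libraries. The groups do not overlap, and both WT-shARF libraries lie at the same level, but the WT-shSCR replicates differ 2.51-fold (2.36 to 2.66), a gap far outside counting error. Its footprints were counted 395 and 235 times (132 and 93.7 CPM) in WT-shSCR and 171 and 248 times (62.5 and 53.4 CPM) in WT-shARF libraries. These groups do not overlap either, and their replicates lie closer together than those of the control RNA. RNA changed by a log2 of -3.31 (SE 0.23), footprints by -0.99 (SE 0.18) and TE by 2.33 (SE 0.32, adjusted p = 0.000151). Dropping the first WT-shSCR RNA library gave a TE change of 1.52, the lowest of 8 such values. In ArfKO-shSCR MEFs the RNA was counted 1158 and 4766 times (413 and 2003 CPM), a 4.85-fold gap (4.55 to 5.18), and footprints 368 and 1082 times (74.4 and 219 CPM).

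Mogat2 had neither few footprints nor uneven RNA in the comparison that picked it, so the description it was picked under is not borne out by its counts. Its RNA was counted 363 and 211 times (134 and 133 CPM) in WT-shSCR and 94 and 209 times (49.1 and 47.9 CPM) in WT-shARF libraries. The replicates agree to 1.00-fold (0.845 to 1.19) and 1.03-fold (0.795 to 1.31), and the groups are far apart. Its footprints were counted 88 and 49 times (29.4 and 19.5 CPM) in WT-shSCR and 74 and 147 times (27.0 and 31.7 CPM) in WT-shARF libraries, which overlap. RNA changed by -1.46 (SE 0.18), footprints by 0.25 (SE 0.28) and TE by 1.72 (SE 0.30, adjusted p = 0.00849) on the log2 scale. Here the RNA fell and the footprints stayed within the spread of their replicates.

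Zfp934 RNA was counted 1658 and 525 times (610 and 331 CPM) in WT-shSCR and 272 and 347 times (142 and 79.5 CPM) in WT-shARF libraries. Its replicates differ 1.84-fold (1.67 to 2.04), by more than 86% of genes, and 1.79-fold (1.52 to 2.10), by more than 87.9%. Both gaps lie outside counting error, though under the 2-fold mark used below, and the groups do not overlap. Its footprints were counted 365 and 206 times (122 and 82.1 CPM) in WT-shSCR and 204 and 287 times (74.5 and 61.8 CPM) in WT-shARF libraries. The lowest control and the highest WT-shARF library are 82.1 and 74.5 CPM, so that these groups nearly touch. The changes were -2.14 for RNA (SE 0.21), -0.61 for footprints (SE 0.18) and 1.54 for TE (SE 0.31, adjusted p = 0.0448), which made it the called gene nearest to the threshold in this comparison. The first gene outside it was Rpsa, which encodes a protein of the small ribosomal subunit, with a log2 TE change of 0.64 and an adjusted p of 0.0579 by edgeR.

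**Figure D2:**
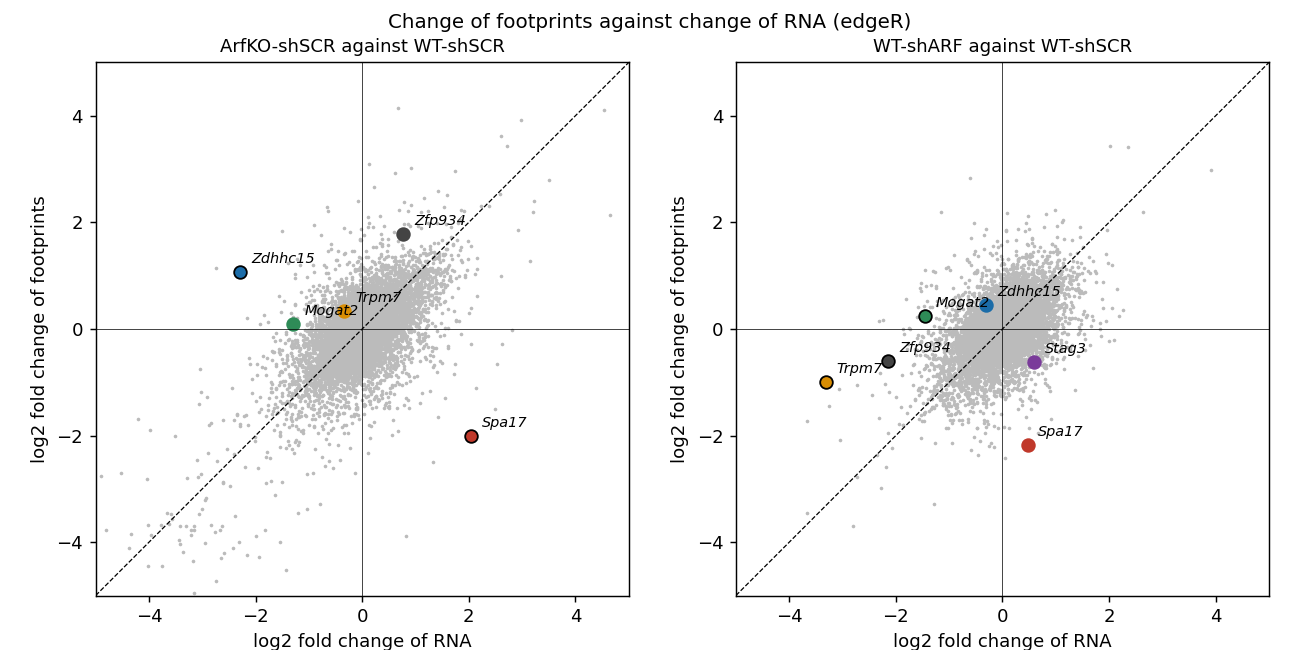
Log2 fold change of footprints (vertical axis) against that of RNA (horizontal axis) from edgeR for every gene tested in both assays (grey) and for the 6 genes (coloured, with a black rim in the comparison that picked them), with genes beyond 5 on either axis not drawn. A gene on the dashed line keeps its TE. Trpm7 (-3.31 for RNA, -0.99 for footprints), Zfp934 and Mogat2 lie left of the line in the libraries labelled WT-shARF, and Zdhhc15 and Spa17 lie far from it on opposite sides in ArfKO-shSCR MEFs, where Stag3 is missing because its footprints were not tested.

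The comparison that did not pick a gene gives a further reading of it, though with the same WT-shSCR libraries. In ArfKO-shSCR MEFs, Mogat2 RNA was counted 126 and 154 times (44.9 and 64.7 CPM) and was lower than in WT-shSCR MEFs by edgeR (log2 -1.29, SE 0.20, adjusted p = 0.000406), which makes 1 of the 3 genes, beside 3.99% of all genes lower and 3.94% higher. Its footprints, 142 and 123 counts (28.7 and 24.9 CPM), changed by 0.09 (SE 0.27, adjusted p = 0.866 by edgeR). Its TE change was 1.35 (SE 0.32) and did not pass the threshold (adjusted p = 0.112 by edgeR). The 16 ways to take 1 library from each of the 4 groups gave TE changes of Mogat2 from 0.80 to 2.12 on the log2 scale. Since the WT-shSCR libraries also entered the comparison that picked Mogat2, its lower footprints per RNA in them count in both.

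The ArfKO-shSCR replicates of Trpm7 and Zfp934 were far apart in both assays, and in both assays the second was the higher. Trpm7 RNA changed by -0.34 (SE 0.43, adjusted p = 0.704 by edgeR) and its TE by 0.65 (SE 0.68, adjusted p = 0.903 by edgeR). The 16 combinations of single libraries gave TE changes of Trpm7 from -2.03 to 3.62, of which 11 were above 0. Zfp934 RNA was counted 835 and 3148 times (297 and 1323 CPM) and its footprints 575 and 2991 times (116 and 605 CPM) in the ArfKO-shSCR replicates. The first footprint library lies within the WT-shSCR range and the second is 5.20-fold above it (4.76 to 5.70). These footprints were called higher by edgeR (log2 1.78, SE 0.34, adjusted p = 0.000198), 1 of the 3 genes, beside 9.57% of all genes higher and 8.95% lower, but without the second ArfKO-shSCR library the change was 0.15. Zfp934 TE changed by 0.98 (SE 0.73, adjusted p = 0.837 by edgeR), and 12 of 16 combinations were above 0, from -2.06 to 3.91. Most of these combinations cross replicate numbers. With RNA and footprints of the same number, the CPM of footprints per CPM of RNA of Zfp934 was 0.391 and 0.457 in ArfKO-shSCR and 0.200 and 0.248 in WT-shSCR MEFs, which do not overlap. That of Trpm7 was 0.180 and 0.109 against 0.0605 and 0.108, and no source says that equal numbers share a culture.

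In the libraries labelled WT-shARF, Zdhhc15, Stag3 and Spa17 passed the threshold neither in TE nor in RNA by edgeR, beside 3.11% of all genes with higher and 4.17% with lower RNA. At an unadjusted p under 0.05 by edgeR, 1 of the 3 TE changes passed, that of Spa17, beside 430 of 11289 genes higher and 321 lower. DESeq2 gave no adjusted p to any of these 3 changes. Zdhhc15 TE changed by 0.70 (SE 0.52, adjusted p = 0.851) and its RNA by -0.30 (SE 0.17, adjusted p = 0.325). Stag3 TE changed by -1.21 (SE 0.94, adjusted p = 0.862), with 14 footprints in the group. Spa17 TE changed by -2.68 (SE 0.72, adjusted p = 0.205), and its footprints were called lower (log2 -2.18, SE 0.38, adjusted p = 0.000127 by edgeR), beside 5.5% of all genes lower and 5.63% higher. This footprint fall rests on the same second WT-shSCR library as in the knockout, since without it the change was -0.61.

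In WT-shSCR MEFs, the footprints per RNA of 5 of the 6 genes were below the median of all genes, and those of Zdhhc15, Trpm7 and Spa17 lay outside the range of most genes. The log2 ratio of footprints to RNA in CPM, in which the length of the gene cancels, had a median of -0.03 over all genes, with 90% of genes between -2.72 and 1.56. It was -6.40 for Zdhhc15, with only 0.733% of genes below it, and -3.63 for Trpm7, with 3.3% below. Mogat2 (-2.47, 5.71% below), Zfp934 (-2.17, 6.7% below) and Stag3 (-1.65, 9.88% below) were low within that range, whereas Spa17 was high (3.26, 99.5% below). In the libraries labelled WT-shARF, the ratios of Trpm7 (-1.42), Mogat2 (-0.73) and Zfp934 (-0.65) were nearer to the median of all genes. Those of Zdhhc15 (-5.58) and Spa17 (1.08) were nearer there too, and that of Stag3 (-2.75) was further away. In ArfKO-shSCR MEFs, those of Zdhhc15 (-3.21), Spa17 (0.04), Mogat2 (-1.01), Zfp934 (-1.24) and Trpm7 (-2.83) were nearer to it, though Trpm7 and Zfp934 replicates lay far apart. Stag3, with 0 footprints in ArfKO-shSCR MEFs, moved away. All these ratios are read against those of the WT-shSCR libraries, which entered the choice of each gene, so they describe the choice.

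The amount of data behind a call differed widely among the 6 genes. The mean footprint count over 6 libraries was 5.17 for Stag3, with 4.99% of genes lower, and 18.7 for Zdhhc15, with 17.8% lower. Mogat2 (104) and Spa17 (111) lay above the middle of all genes, and Trpm7 (417) and Zfp934 (771) near the top, with 85.9% and 92.6% of genes lower. The mean RNA count ranked the genes differently, with 33.6% of genes lower for Spa17, 34.3% for Stag3 and 92.2% for Zdhhc15. Few footprints thus describe Stag3 and Zdhhc15 only, and few RNA reads describe Spa17 and Stag3.

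RNA replicates were most uneven for Trpm7, Zfp934 and Spa17, and for these genes in the ArfKO-shSCR group. Over all genes, by contrast, 11.3% differed over 2-fold in RNA between the WT-shSCR replicates, 8.59% between the WT-shARF and 10.3% between the ArfKO-shSCR replicates, and in footprints 13.5%, 11.2% and 9.07% did. Between the ArfKO-shSCR replicates, Trpm7 differed by more than 98.5% of genes, Zfp934 by more than 98.2% and Spa17 by more than 98.1%. Trpm7 and Zfp934 were higher in the second of these libraries and Spa17 in the first. Between the WT-shSCR replicates, Trpm7 RNA differed by more than 93.4% of genes and Mogat2 RNA by more than 1.02%. In footprints, Zfp934 (98.8%), Zdhhc15 (96.7%) and Trpm7 (96.2%) were far apart between the ArfKO-shSCR replicates and Spa17 (97%) and Stag3 (95.6%) between the WT-shSCR replicates.

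**Figure D3:**
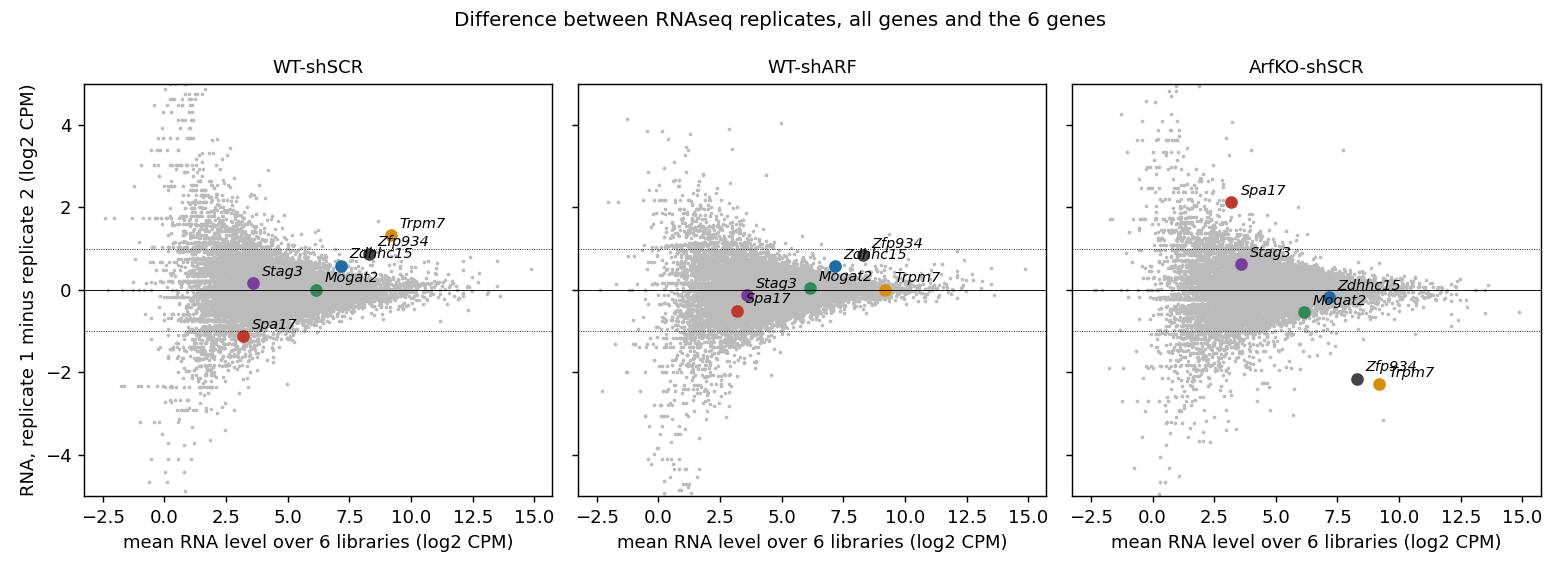
Difference between the RNAseq replicates of each group (replicate 1 minus replicate 2, log2 CPM) against the mean RNA level over the 6 RNAseq libraries (log2 CPM), for all genes kept (grey) and the 6 genes (coloured), with dotted lines at a 2-fold difference and points beyond 5 not drawn. Trpm7 and Zfp934, with high RNA levels, lie far below most other genes of like level in the ArfKO-shSCR group (2.28 and 2.15 below 0), and Mogat2 lies near 0 in the WT-shSCR and WT-shARF groups.

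Trpm7 and Zfp934 varied together over the libraries. Their log2 CPM, centred within each assay, had a Pearson r of 0.89 over 12 libraries, 0.934 over the 6 RNAseq and 0.901 over the 6 ribosome profiling libraries, all 12 made from the same 3 groups, so the points share condition and depth. The gene most like Trpm7 among all genes kept was Sult2a3, a sulfotransferase gene (r = 0.987 over 12 libraries), and the gene most like Zfp934 was Zc3h12c, an RNA-binding protein of the CCCH zinc finger type (r = 0.97). Sult2a3 RNA was counted 347 and 71 times (128 and 44.8 CPM) in WT-shSCR, 13 and 19 times (6.79 and 4.36 CPM) in WT-shARF and 48 and 308 times (17.1 and 129 CPM) in ArfKO-shSCR MEFs. Zc3h12c RNA was counted 4313 and 1392 times (1587 and 878 CPM), 528 and 468 times (276 and 107 CPM) and 1316 and 10007 times (469 and 4205 CPM) in the same order. In all 4 genes the first WT-shSCR RNAseq library exceeded the second, both WT-shARF libraries lay below both WT-shSCR libraries and the second ArfKO-shSCR library exceeded the first. Sult2a3 and Zc3h12c were picked for their likeness over these same libraries, so their sharing of this pattern follows from the choice. Trpm7 and Zfp934 were picked on a TE change that includes their lower WT-shARF RNA. They are also the pair with the highest r among the 6 genes. What sets the replicates apart was not tested.

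**Figure D4:**
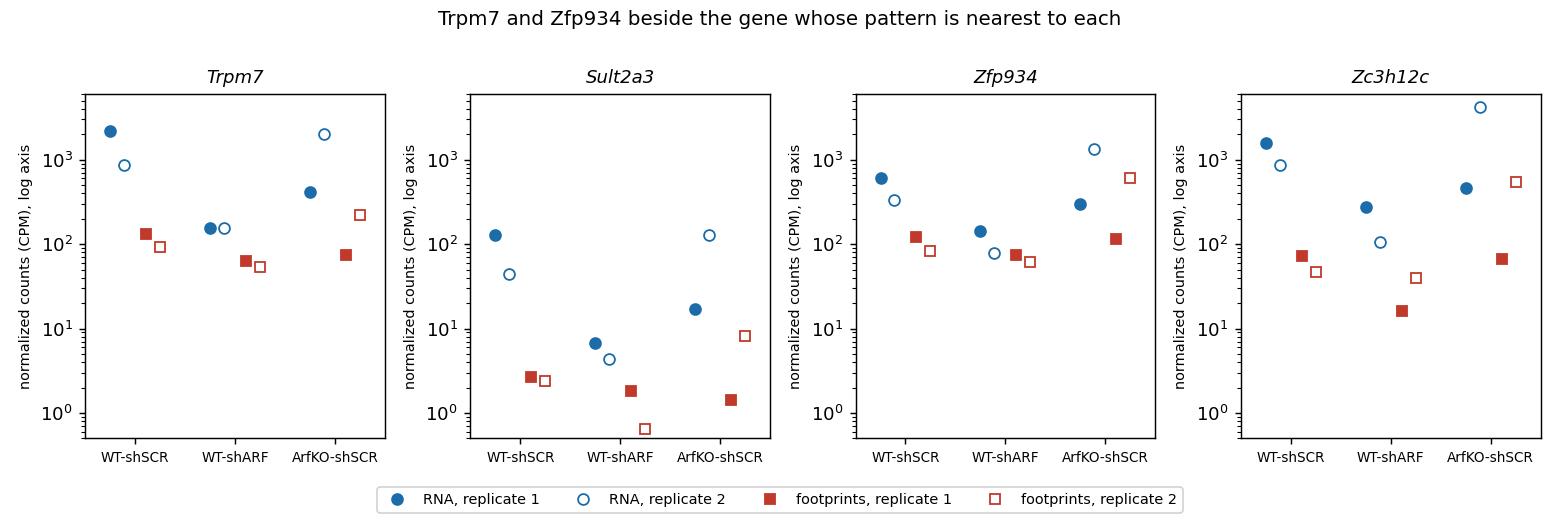
Normalized counts (CPM, log axis) of Trpm7, Sult2a3, Zfp934 and Zc3h12c in each library, with RNA as circles, footprints as squares, replicate 1 filled and replicate 2 open. The second ArfKO-shSCR replicate stands above the first in both assays for each of the 4 genes, from 413 to 2003 CPM in the RNA of Trpm7. Sult2a3 and Zc3h12c were picked for their correlation with Trpm7 and Zfp934 over these libraries.

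How far each TE change depends on the fit was read from 9 other settings and from leaving out each of the 8 libraries of a comparison in turn. Zdhhc15 and Stag3 were tested in only 8 of the 9 settings, since a filter of at least 10 counts in every library removed both. Since the genes were picked for their calls in these libraries, the direction is fixed by the choice, and what varies is the size and the call. Trpm7 remained called without any 1 library (TE change 1.52 to 2.81), but not with robust dispersions or with all 3 groups in a single fit. Zdhhc15 was called in 6 of 8 such fits (2.28 to 4.00) and not without the second WT-shSCR or the first ArfKO-shSCR footprint library. Mogat2 (1.47 to 2.06) and Zfp934 (1.02 to 1.95) were called in 5 of 8 each. Spa17 was called in 3 of 8 (-4.78 to -2.52) and Stag3 in 2 of 8 (-7.86 to -6.01). Among the other settings, robust dispersions also lost Zdhhc15, Spa17 and Zfp934, all 3 groups in a single fit lost Mogat2 and Zfp934, and upper quartile factors lost Zfp934. The 16 combinations of single libraries spread from 1.48 to 4.88 for Zdhhc15, -6.00 to -0.44 for Spa17, 1.18 to 3.24 for Trpm7, 1.32 to 2.17 for Mogat2 and 0.24 to 2.80 for Zfp934. DESeq2 called 1 of the 6 genes, Trpm7, left Zfp934 uncalled and gave no adjusted p to the other 4, which its filter on mean counts set aside.

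**Figure D5:**
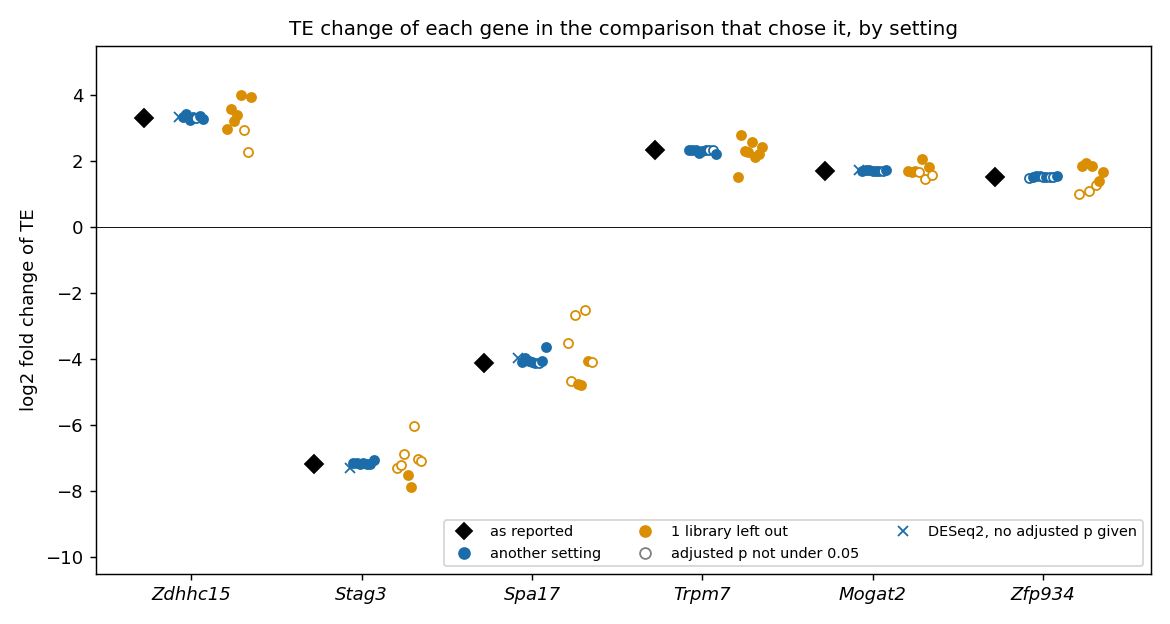
Log2 fold change of TE of each gene in the comparison that picked it, as reported (diamonds), under 9 other settings (blue) and with 1 library left out (orange), open where the adjusted p was not under 0.05 and crossed where DESeq2 gave none. Zdhhc15 and Stag3 are shown for 8 of the 9 settings, since a filter of at least 10 counts in every library removed both. The left-out libraries move Spa17 (-4.78 to -2.52) and Zdhhc15 (2.28 to 4.00) most beside Stag3, whose size is not defined.

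Of the other 20 calls, Itgam and Tlr13 also had fewer than 30 footprints in a group mean or a replicate RNA difference over 2-fold. Itgam encodes an integrin of myeloid cells and Tlr13 a receptor for bacterial RNA. Tlr13 footprints were counted 29 and 29 times (9.67 and 11.6 CPM) in WT-shSCR and 3 and 4 times (0.607 and 0.809 CPM) in ArfKO-shSCR MEFs, with RNA at 26 and 7 counts (9.57 and 4.42 CPM) against 39 and 29 (13.9 and 12.2 CPM). Its log2 TE change was -4.73 (SE 0.80). Itgam footprints fell from 203 and 129 counts (67.7 and 51.4 CPM) to 27 and 28 (5.46 and 5.66 CPM), with a log2 TE change of -2.27 (SE 0.39), and its RNA was at 67.7 and 46.7 CPM against 20.3 and 30.3 CPM. Both adjusted p-values were 0.0118 by edgeR, and the footprint replicates of both genes lay close together. The summed RNA of the macrophage markers, among which Tlr13 is listed, was lower in the same group, as given above. The RNA of Tlr13 itself went the other way, and the part of the markers in these calls was not tested.

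The other genes of each family were looked up in lists of relatives. Leaving out the 6 genes themselves, edgeR made 0 TE calls in ArfKO-shSCR MEFs among 18 palmitoyltransferases, 3 TRPM channels, 14 enzymes of glycerolipid acylation, 13 cohesin genes, 2 genes named like Zfp934 and 4 fibrous sheath or docking genes. Over all genes, TE was called higher for 0.0884% and lower for 0.106%, so 0 calls on lists this small say little. At an unadjusted p under 0.05 by edgeR, 1 palmitoyltransferase, 1 cohesin gene and 1 sheath gene passed, beside 326 of 11314 genes higher and 447 lower. DESeq2 made 0 calls but gave an adjusted p to only 1 of all the listed genes. Their median log2 TE changes were -0.15, 0.14, -0.215, -0.34, 0.41 and 0.14 in the order above, beside -0.04 over all genes. In the libraries labelled WT-shARF edgeR also made 0 TE calls on these lists, beside 0.0354% of all genes higher and 0% lower. There 3 genes named like Zfp934 and 5 fibrous sheath or docking genes were tested. At an unadjusted p under 0.05 by edgeR, 2 cohesin genes and 1 sheath gene passed, beside 430 of 11289 genes higher and 321 lower. DESeq2 made 0 calls but again gave an adjusted p to only 1 of all the listed genes. The medians were -0.14, 0.62, 0.07, -0.23, -0.74 and 0.12, beside 0.01 over all genes.

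Among cohesin genes, which hold sister chromatids together, 5 of 12 had more footprints in ArfKO-shSCR MEFs, beside 9.57% of all genes. Rad21 (log2 0.67, SE 0.12) and Smc3 (0.59, SE 0.14), subunits of the ring, rose with Smc1a (0.39, SE 0.12) and the regulators Pds5a (0.49, SE 0.16) and Pds5b (0.57, SE 0.16), with adjusted p-values of 0.000136 to 0.0272 by edgeR. The median of the 12 was 0.42, against 0.00 over all genes. These calls are lost when either WT-shSCR footprint library is left out, as are all footprint calls of the comparison. Stag3 itself had 0 footprints there. RNA was called higher for 2 of 13 cohesin genes in the same MEFs, Smc3 (log2 0.90, SE 0.20) and the loader Nipbl (0.80, SE 0.22), beside 3.94% of all genes. In the libraries labelled WT-shARF, RNA was higher for 1 of 13 cohesin genes, Rad21 (0.95, SE 0.21), beside 3.11% of all genes. Footprints were higher for 2 of 12, Rad21 (0.43, SE 0.12) and Smc1a (0.44, SE 0.12), beside 5.63% of all genes. Besides Mogat2, 13 glycerolipid enzymes were tested for RNA in ArfKO-shSCR MEFs. Mogat1 alone of these was higher (log2 1.27, SE 0.38, adjusted p = 0.0455 by edgeR), beside 3.94% of all genes. The phosphatidate phosphatase Lpin3 alone was lower (-1.32, SE 0.32), beside 3.99% of all genes. In WT-shARF libraries, where Mogat2 RNA was also lower, Mogat1 RNA was 7.31 and 11.7 CPM, against 7.36 and 11.4 CPM in WT-shSCR. Mogat1 footprints were 0 in every library but 1, which had a count of 1. Of 17 palmitoyltransferases besides Zdhhc15, 2 had fewer footprints in ArfKO-shSCR MEFs, Zdhhc9 (-0.92, SE 0.28) and Zdhhc12 (-0.68, SE 0.23), beside 8.95% of all genes. Of 4 sheath or docking genes besides Spa17, 1 was lower in RNA there, beside 3.99% of all genes. It was Prkar1b, a regulatory subunit of protein kinase A (-1.62, SE 0.39). Of 5 such genes tested in footprints, Prkar1b was lower (-1.27, SE 0.29) and Prkar2b, another such subunit, was higher (0.67, SE 0.17). In the libraries labelled WT-shARF, Prkar1b was also lower in RNA (1 of 4, -1.50, SE 0.38) and footprints (1 of 5, -1.39, SE 0.32). RNA was higher for Prkar2a (1 of 4, 0.68, SE 0.21) and Zdhhc6 (1 of 18, 0.77, SE 0.23). Zdhhc12 (-0.73, SE 0.25) and Zdhhc20 (-0.56, SE 0.17) were 2 of 16 palmitoyltransferases with fewer footprints. Over all genes there, RNA was higher for 3.11% and lower for 4.17%, and footprints were lower for 5.5%. All genes named here from the lists passed an adjusted p of 0.05 by edgeR.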

How the data were processed

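RNAseq and ribosome profiling libraries of WT-shSCR, WT-shARF and ArfKO-shSCR MEFs (2 replicates each) were analysed. Per the study's methods, the authors hydrolysed depleted total RNA to fragments of 17 to 34 nt or digested polysomes with RNase, clipped adapters, took off molecular identifiers, discarded rRNA and noncoding RNA reads with Bowtie2, mapped what was left to the mm10 genome by TopHat and used HTSeq to count coding sequence reads. Their versions, a removal of duplicate reads and a strand setting are not given in the sources used here. The files as deposited hold raw counts for each gene. Alignments that were not unique, left out of the counts, were 79.2% to 81.4% of RNAseq and 46.3% to 52.9% of ribosome profiling alignments, relative to all alignments listed.

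TMM factors and quasi-likelihood F tests were computed with edgeR 4.0.16 (R 4.3.3) on these counts after filterByExpr, with TE tested as the assay by condition interaction in 8 libraries, RNA or footprints over 4, and Benjamini-Hochberg adjustment over all genes tested at 0.05. Standard errors were derived from the log2 fold change and F. All 6 genes passed the filter over 12 libraries and in both TE fits. DESeq2 1.42.0, other scaling, filters, dispersions, blocks and left-out libraries were alternatives. Intervals of replicate folds are exact binomial and cover counting error only. Nothing states that replicates are separate cultures, so p-values measure the spread between libraries, which may be technical, and the smallest exact permutation p of 2 against 2 is 0.33. Figures were drawn with matplotlib 3.10.9.

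The genes and lists were chosen with earlier results of these data known. Named are the 6 genes, other TE calls with fewer than 30 footprints in a group mean or a replicate RNA difference over 2-fold, the genes next to the threshold, list members that passed a test, Cdkn2a, and for each of the 6 the 2 genes with the highest correlation. Windows of 25 nt were compared after the counts had been seen, against GENCODE M21 transcripts.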

Additional observations from a re-analysis of the deposited data

How the results depend on the processing

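Of the values of single genes under other settings, left-out libraries included, 335 were counted as unchanged, 44 lost the call, 19 gained one and 16 reversed. The unchanged include DESeq2 values with no adjusted p, which were compared by direction only. They also include descriptive values without a threshold, such as footprint ratios and replicate differences, so 335 is no count of stable calls. The cause was not tested unless named. Of the 6 genes, DESeq2 called 1 (of 2 to which it gave an adjusted p), robust dispersions 2 and all groups in 1 fit 3. In ArfKO-shSCR against WT-shSCR MEFs, the genes with higher TE were 67 by DESeq2, 83 without a filter, 27 with robust dispersions, 38 with all groups in 1 fit and 18 with a replicate block for cultures, and those with lower TE 40 without a filter and 19 with at least 10 counts per library. In WT-shARF against WT-shSCR MEFs, higher and lower TE counts were 51 and 4 by DESeq2, 30 and 10 without a filter, 10 and 3 with at least 10 counts, and 18 and 3 with robust dispersions. Higher TE counts were 2 with upper quartile factors and 0 with all groups in 1 fit. DESeq2 called RNA higher and lower for 199 and 193 genes and footprints for 638 and 526 in the knockout, and 112 and 168 and 362 and 312 in the WT-shARF comparison.

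Equal replicate numbers were not taken as pairs. Between groups, deviations of same-numbered libraries correlated at -0.0199 and -0.0104 in RNA and 0.0183 and 0.0116 in footprints over 11603 genes, and at -0.117 in RNA of the knockout comparison over genes with at least 30 counts. Between RNA and footprints of a group, a check added later, they correlated at 0.00843 (WT-shSCR), 0.018 (WT-shARF) and 0.0626 (ArfKO-shSCR). In WT-shARF against WT-shSCR MEFs, the replicate block gave 28 higher and 7 lower TE calls and the replicate block for cultures 32 and 9, and each of the 6 genes stayed called under both in the comparison that picked it. The replicate block for cultures also called TE of Zfp934 in the knockout (0.88, SE 0.18, adjusted p = 0.0204 by edgeR, over a range of 1.42e-06 to 0.955 across settings) and of Spa17 in the WT-shARF comparison (-2.40, SE 0.51, adjusted p = 0.00232 by edgeR, over 0.000361 to 0.829).

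Leaving out 1 library at a time, higher and lower calls ranged from 5 to 20 and 5 to 40 for TE, 105 to 420 and 117 to 370 for RNA, and 0 to 633 and 0 to 560 for footprints in the knockout comparison. In the WT-shARF comparison they ranged from 1 to 32 and 0 to 9, 121 to 371 and 153 to 512, and 292 to 565 and 322 to 502. The 0 footprint calls came from leaving out either WT-shSCR footprint library. Values that reversed ranged, in the knockout, from -0.322 to 2.22 (Trpm7) and -0.648 to 2.45 (Zfp934) for TE, -1.89 to 0.471 (Trpm7) and -0.669 to 1.48 (Zfp934) for RNA, and -0.633 to 0.926 (Trpm7), -0.159 to 0.428 (Mogat2) and -0.0234 to 1.69 (Zdhhc15) for footprints. In the WT-shARF comparison they ranged from -0.595 to 0.0413 (Zdhhc15) and -0.0597 to 1.07 (Spa17) for RNA and from -0.00259 to 0.57 (Mogat2) and -1.88 to 0.638 (Stag3) for footprints. With 2 replicates a left-out library leaves a lone sample that is assumed to vary like the others. The depth limits Stag3 and Zdhhc15 footprints most.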

Other observations

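The genes most like the other 4, by Pearson r of centred log2 CPM over the 12 libraries, were Ftl1 (0.929) and Prkacb (0.907) for Mogat2, Fkbp2 (0.832) and Gid4 (0.831) for Zdhhc15, Fbxo16 (0.897) and Panx1 (0.885) for Stag3, and Htr2a (0.886) and Styx (0.88) for Spa17. The second gene for Trpm7 was Cul7 (0.931) and for Zfp934 Sult2a3 (0.906). Ftl1 encodes ferritin light chain. Its RNA was 3180 and 2799 CPM in WT-shSCR, 1957 and 1893 CPM in WT-shARF and 1799 and 1904 CPM in ArfKO-shSCR libraries, and its footprints were 365 and 283, 309 and 319, and 321 and 279 CPM. As for Mogat2, the RNA of both other groups lies below WT-shSCR and the footprints overlap. Ftl1 was picked for its correlation with Mogat2 over these libraries, so this likeness follows from the choice. The Fbxo16 counts, 1 to 11 per library, are as low as the footprints of Stag3.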
